A study of Mus musculus with 25 samples.

Results

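The core circadian clock genes are followed here across lungs of mice given sphingosine-1-phosphate analogues, thoracic radiation, or both. They are the 10 genes Per1, Per2, Per3, Cry1, Cry2, Nr1d1, Nr1d2, Npas2, Clock and Rora, chosen by symbol from the 18193 genes that had a probe set naming that gene alone. Each gene was read from its brightest probe set, judged by the mean of the 25 arrays, out of 30 probe sets for the 10 genes. All 10 lay above the filter on low values and were among the 12937 genes tested.

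Total lung RNA from 25 wildtype female C57BL/6J mice, 14 to 17 weeks old and weighing 20 to 25 g, was hybridised to 1 Affymetrix array per mouse. In the irradiated groups the thorax received a single dose of 25 Gy, with fTyS ((S)-FTY-phosphonate), FTY (FTY720), SEW (SEW-2871) or no compound, and each of these 4 groups had 3 mice. The unirradiated groups received fTyS, FTY or SEW (3 mice each), or PBS as the control (4 mice). Each compound was injected intraperitoneally at 0.1 mg/kg, 2 times a week, and all 8 groups lived under a 12 h light-dark cycle. The labels used here give neither the hour at which lungs were collected nor the time between irradiation and collection. FTY720 is a sphingosine analogue that cells phosphorylate into a ligand of sphingosine-1-phosphate receptors, (S)-FTY-phosphonate is a phosphonate analogue of that phosphorylated form, and SEW-2871 is an agonist of a receptor of the same family. Because whole lung was sampled, fewer cells of a type and less RNA per cell cannot be told apart.

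In the clock of mammalian cells, BMAL1 (encoded by Arntl) pairs with CLOCK or its relative NPAS2 and switches on genes that carry E-boxes. Among these are Per and Cry genes, whose proteins inhibit the pair, and Nr1d1 and Nr1d2, whose products REV-ERBα and REV-ERBβ repress Arntl, Npas2, Clock and Cry1 in competition with activators such as RORα, the product of Rora. The lung has a strong rhythm of this kind, in which Per3, Nr1d1 and Nr1d2 run roughly in antiphase to Arntl and Npas2, so the level of these genes in a lung depends on the hour at which that lung is taken.

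Elements that these loops use were looked for in the 250 bases before the annotated transcription starts, taken from RefSeq (GRCm38.p6), where 9 of the 10 genes had an entry. The E-box was spelled CACGTG, the D-box TTANGTAA and the core of the ROR element TAGGTCA or TGGGTCA and the cAMP response element TGACGTCA, each on both strands. The windows of 3 genes with a match are shown because they show where these letters lie in the genes followed here. The Per3 window (chr4:151044666-151044915, minus strand) held 2 D-boxes, at bases 205 to 198 and 158 to 151 before the start. The upstream window of Per1 (chr11:69098699-69098948, plus strand) held an E-box at bases 166 to 161. The Cry1 window (chr10:85185055-85185304, minus strand) held an E-box at bases 60 to 55. The matches stand in capitals, each sequence runs 5′ to 3′ along the strand of its gene, and a match in these letters is a description and not a binding site.
Per3: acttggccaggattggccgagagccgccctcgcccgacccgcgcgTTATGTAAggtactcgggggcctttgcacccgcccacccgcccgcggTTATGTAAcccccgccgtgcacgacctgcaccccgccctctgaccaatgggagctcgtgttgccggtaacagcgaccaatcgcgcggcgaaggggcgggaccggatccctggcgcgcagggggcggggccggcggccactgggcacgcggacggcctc
Per1: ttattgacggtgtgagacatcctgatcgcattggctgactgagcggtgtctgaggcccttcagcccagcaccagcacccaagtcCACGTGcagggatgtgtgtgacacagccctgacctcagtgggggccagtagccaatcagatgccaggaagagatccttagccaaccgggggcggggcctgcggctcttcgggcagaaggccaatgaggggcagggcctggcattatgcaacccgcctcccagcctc
Cry1: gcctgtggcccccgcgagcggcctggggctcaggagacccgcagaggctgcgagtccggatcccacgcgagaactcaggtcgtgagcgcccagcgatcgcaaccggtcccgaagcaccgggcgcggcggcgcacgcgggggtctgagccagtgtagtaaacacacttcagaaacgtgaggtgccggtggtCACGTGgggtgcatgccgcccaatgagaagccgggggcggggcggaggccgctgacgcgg
Of the 32851 RefSeq windows of the same length, 6.02% held this E-box, 2.06% this D-box, 5.38% this ROR element core and 1.55% this cAMP response element. None of these letters occurred in the windows of Cry2, Nr1d1, Nr1d2, Npas2, Clock or Rora.

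The deposited values are array signals, given below as log2(signal + 16), and a value for 1 gene is never set against that of another gene. Array medians ran from 118.33 to 129.58 signal units, and the Pearson correlation between arrays, over 45037 probe sets, from 0.965 to 0.994. The labelled tissue was borne out by its markers: 7 of 8 lung genes lay above the filter (Marco did not), their mean ran from 11.65 to 12.12 over the 25 arrays, and of 4 liver genes on the array, 1 lay above it. Skeletal muscle genes varied between arrays of the same group, with list means from 6.73 to 12.48, and so did adipocyte genes, from 6.97 to 10.98. Differences were tested with limma on all 8 groups and all genes, with Benjamini-Hochberg adjustment over the 12937 genes in each of 19 comparisons, and a gene was called at an adjusted p of at most 0.05. The 10 clock genes gave 190 such tests, of which 10 were called, in 6 comparisons and for 4 genes (Per3, Nr1d1, Nr1d2 and Rora). Comparisons that use the same arrays, such as those of the control, radiation or FTY group, are not independent of each other.

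**Figure D1:**
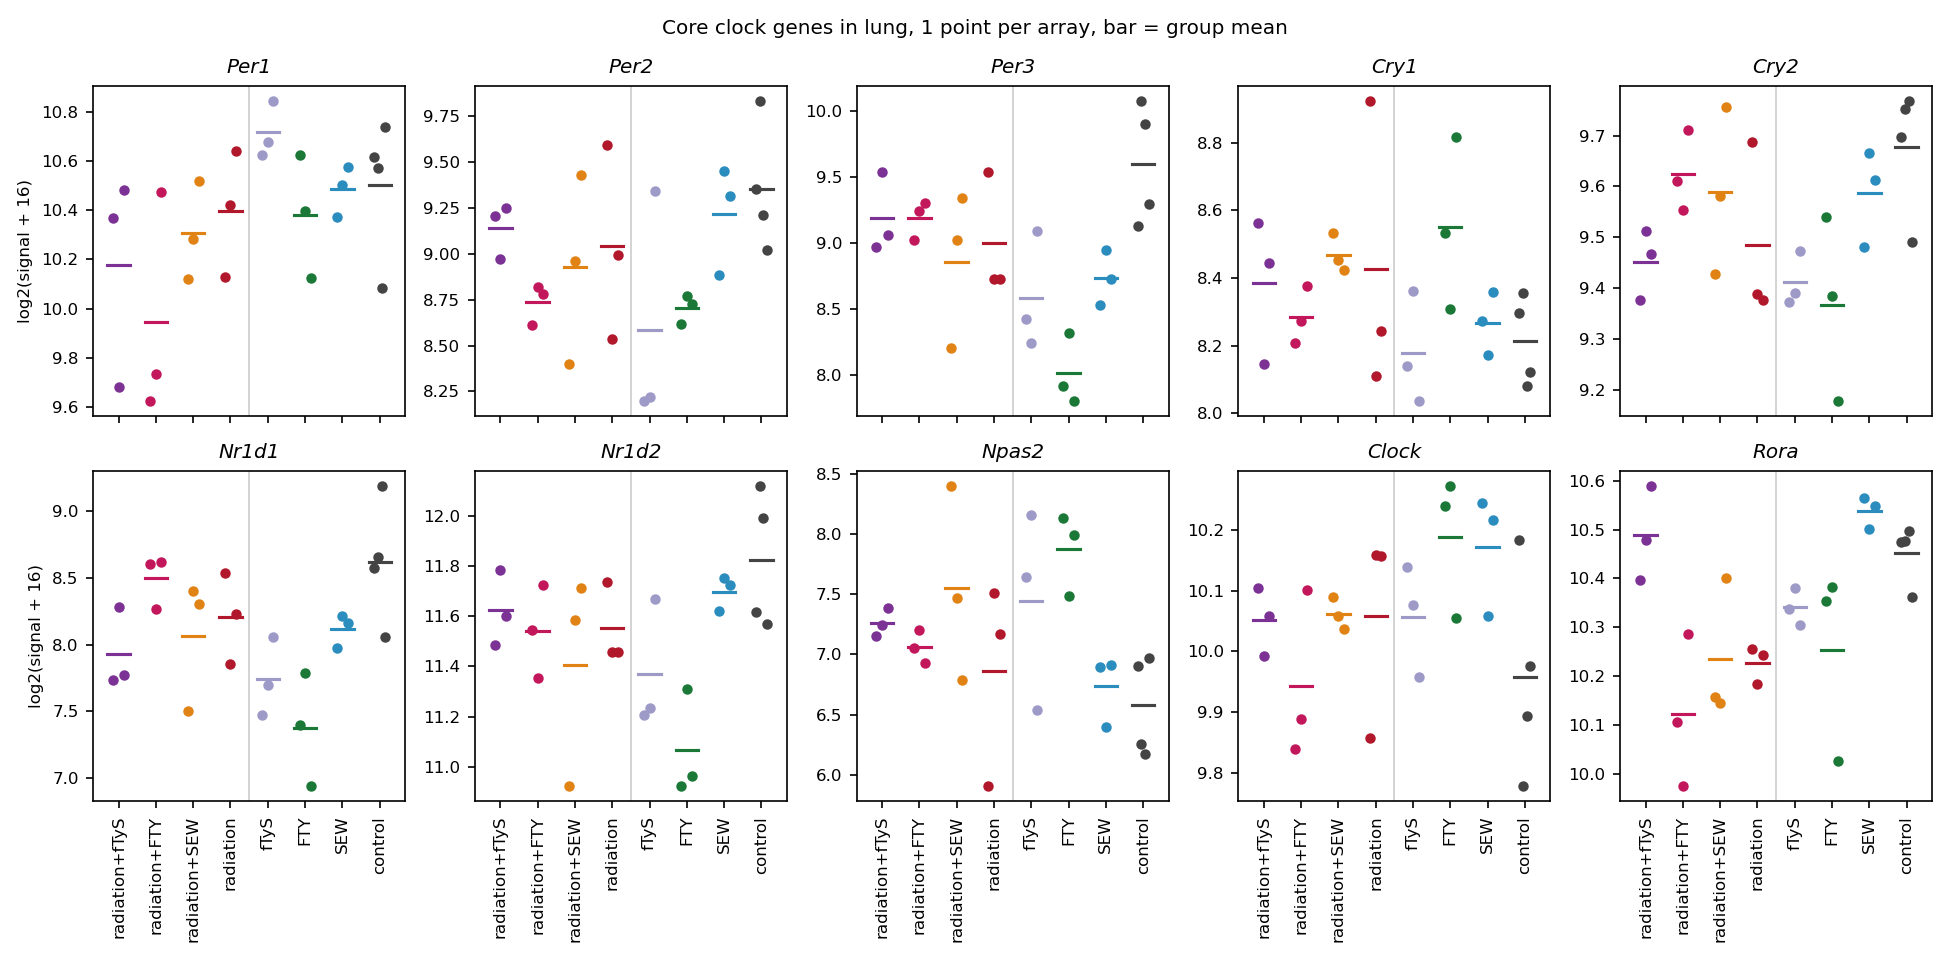
Level of each of the 10 clock genes, as log2(signal + 16) of its probe set, on every array of the 8 groups (points) with the group mean (bar); the grey line divides irradiated from unirradiated groups, and each panel has its own scale. FTY lungs held the lowest group mean of Per3 (8.01), Nr1d1 (7.37) and Nr1d2 (11.07), and the highest of Npas2 (7.88).

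Treatment with FTY alone went with lower Per3, Nr1d1 and Nr1d2 in unirradiated lungs. Of the 10 clock genes, 3 fell and none rose against control lungs, where 2.73% of all genes were called and 2.25% fell. Per3, a period gene whose protein joins the inhibitory complex, measured 7.92, 8.32 and 7.80 in FTY lungs, against 9.13, 10.07, 9.90 and 9.30 in control lungs. Every FTY lung lay below every control lung. Per3 fell by 1.59 on the log2 scale (SE 0.28, limma adjusted p = 0.00805), which is 3.01-fold. It has 6 probe sets on the array, and all of them gave a lower mean in FTY lungs, 5 of them past the threshold. Nr1d1, which encodes the repressor REV-ERBα, measured 7.40, 7.79 and 6.94 in FTY lungs, against 8.57, 8.66, 9.19 and 8.06 in control lungs. The groups did not overlap, and the gene fell by 1.25 (SE 0.26, limma adjusted p = 0.0171). Nr1d2, which encodes REV-ERBβ, measured 10.92, 11.31 and 10.97 in FTY lungs, against 11.62, 12.12, 11.99 and 11.57 in control lungs. Here too the groups were apart, with a fall of 0.76 (SE 0.17, limma adjusted p = 0.0248).

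The partners of BMAL1 and the remaining feedback genes did not pass the test in FTY lungs at the probe sets followed here. At other probe sets Per2 fell by 0.98 (limma adjusted p = 0.0296) and Rora by 0.63 (limma adjusted p = 0.0155), 1 probe set of each gene. The remaining probe set of Per2 gave -0.27 (limma adjusted p = 0.586). Npas2, the relative of Clock, measured 8.14, 7.49 and 8.0 in FTY lungs, against 6.91, 6.26, 6.17 and 6.97 in control lungs. All FTY values were above all control values, and the log2 difference was 1.30 (SE 0.39) with a limma adjusted p of 0.0820. The other probe set of Npas2, below the filter, gave -0.07. Clock, the other partner of BMAL1, measured 10.24, 10.27 and 10.05 in FTY lungs, against 10.18, 9.78, 9.89 and 9.98 in control lungs, with 1 control lung inside the FTY range. Its difference was 0.23 (SE 0.09, limma adjusted p = 0.182), while its other probe sets gave 0.037 to 0.088. Per2, a period gene, measured 8.62, 8.77 and 8.73 in FTY lungs, against 9.35, 9.83, 9.21 and 9.02 in control lungs. These groups were apart, with a difference of -0.65 (SE 0.28, limma adjusted p = 0.214). Per1 differed by -0.12 (SE 0.21, limma adjusted p = 0.80), Cry1 by 0.34 (SE 0.15, 0.243), Cry2 by -0.31 (SE 0.10, 0.0902) and Rora by -0.20 (SE 0.08, 0.205). In all, 9 of the 10 genes had an unadjusted p under 0.05, as had 18.5% of all genes, and 5 of 10 had groups that did not overlap, as had 15.3% of all genes.

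The calls in FTY lungs rest on few arrays and on the shared estimate of the spread. None of the 3 was called without FTY replicate 3 (Per3 -1.48, Nr1d1 -1.03, Nr1d2 -0.71), where 35 of all genes were called, against 353 with all arrays. Of the clock genes 1 was called without FTY replicate 1 or without control replicate 3, where 96 and 37 of all genes were. None was called when only FTY and control arrays were fitted, where 1 gene of all was called. The log2 ratio of the 3′ to the 5′ Gapdh control probe sets, a sign of RNA quality, ran from -0.10 to 0.03 in FTY lungs and from 0.08 to 0.36 in control lungs, and with this ratio as a covariate no gene of any kind was called, although Per3 still differed by -1.53. The muscle list (7 of 8 genes above the filter) summed to 1925 to 2301 signal units in FTY lungs and to 1486 to 30248 in control lungs, and the adipocyte list (5 of 6 genes) to 4480 to 19474 in FTY lungs and to 1951 to 8103 in control lungs. With the means of both lists as covariates Per3 and Nr1d1 were called and Nr1d2 was not (-0.72, limma adjusted p = 0.0665).

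Other genes of the clock were also called in FTY lungs. A list of 35 clock partners, drawn up with earlier results of these data known, had 30 genes tested, of which 3 rose and 4 fell, where 0.479% of all genes rose and 2.25% fell. Arntl, which encodes BMAL1, measured 9.47, 9.17 and 9.42 in FTY lungs, against 8.62, 7.02, 7.43 and 8.11 in control lungs. The groups did not overlap, and it rose by 1.56 (SE 0.36, limma adjusted p = 0.0288). Dbp, an activator that binds D-boxes and is itself driven through E-boxes, measured 7.76, 9.02 and 8.26 in FTY lungs, against 10.16, 11.65, 11.70 and 10.62 in control lungs. It fell by 2.69 (SE 0.45, limma adjusted p = 0.00670), or 6.44-fold. Tef and Hlf, the D-box activators related to Dbp, fell by 0.91 (SE 0.17, limma adjusted p = 0.0101) and by 1.09 (SE 0.26, 0.0289). Nfil3, the D-box repressor, was named after its values were seen: it rose by 1.82 (SE 0.45, limma adjusted p = 0.0337), with control lungs spread from 5.33 to 7.83 and FTY lungs from 8.17 to 9.25. Sfpq, an RNA-binding protein found with PER proteins, rose by 0.48, and Crebbp, a coactivator of BMAL1, fell by 0.27 (limma adjusted p = 0.0411 and 0.0191). Without FTY replicate 3, Dbp was called (-2.64, limma adjusted p = 0.0426), while Arntl (1.53), Tef (-0.87), Hlf (-1.15) and Nfil3 (2.02) were not, with limma adjusted p from 0.0573 to 0.104. The share that the hour of collection, the compound, RNA quality or tissue makeup had in these differences was not tested.

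**Figure D2:**
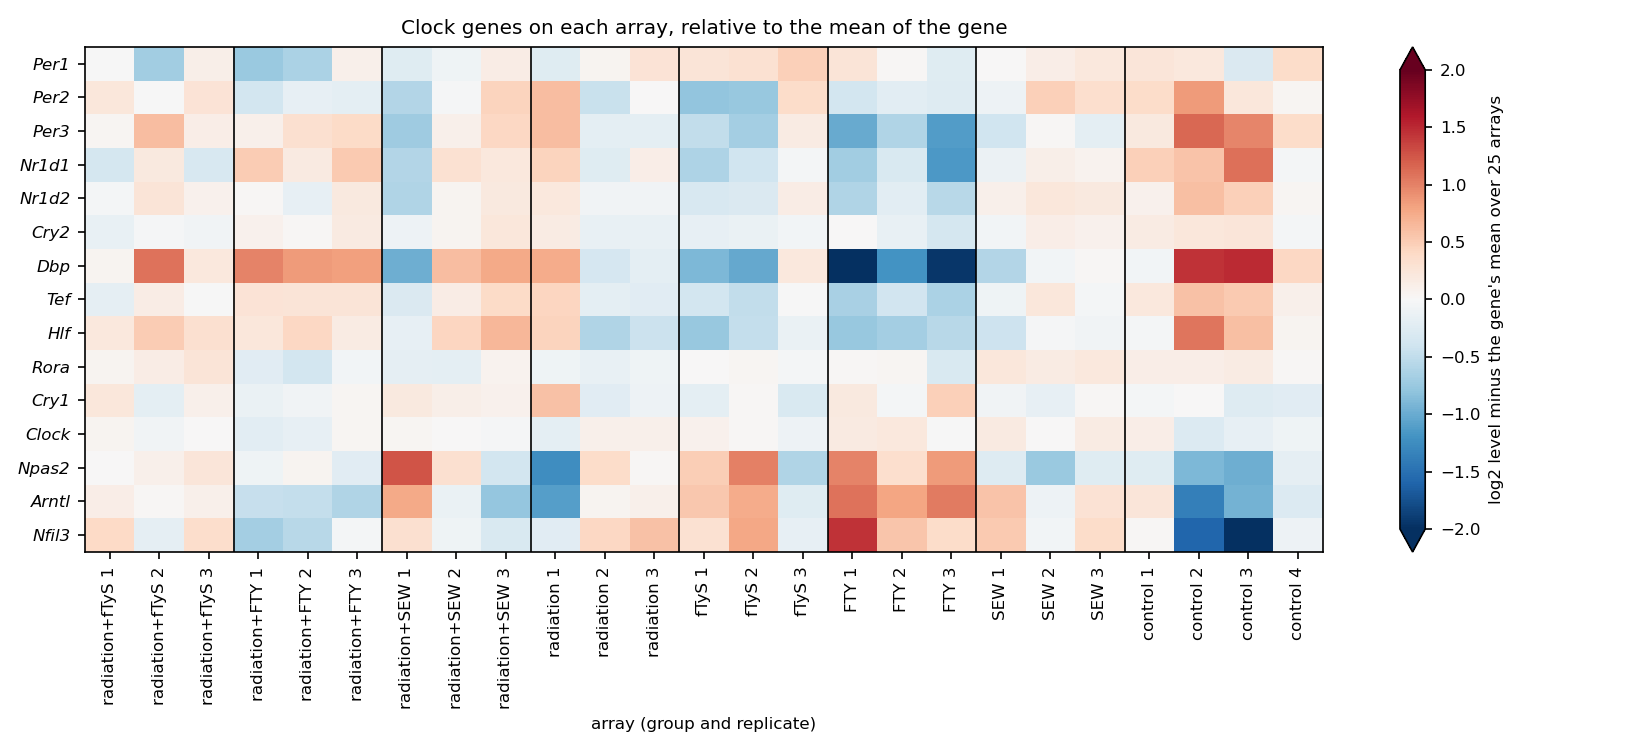
Level of the 10 clock genes and of Dbp, Tef, Hlf, Arntl and Nfil3 on each of the 25 arrays, as the log2 difference from the mean of that gene over all arrays (red above, blue below, colours saturating at 2). Control replicates 2 and 3 carry high Per3 and Dbp with low Npas2, Arntl and Nfil3. The 3 FTY arrays carry the opposite, as do replicates 1 and 2 of fTyS and replicate 1 of radiation with SEW.

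Irradiated lungs treated with FTY did not share the low Per3 and Nr1d1 of unirradiated FTY lungs, while mean Per2 was alike (8.74 and 8.71). Between radiation with FTY and FTY alone, 2 clock genes rose and none fell at the probe sets followed here, where 14.1% of all genes were called and 9.13% rose. Per3 measured 9.03, 9.24 and 9.30 after radiation with FTY, against 7.92, 8.32 and 7.80 in FTY lungs. The irradiated values were all above the others, and the gene rose by 1.18 (SE 0.30, limma adjusted p = 0.0145). Nr1d1 measured 8.60, 8.27 and 8.62 after radiation with FTY, against 7.40, 7.79 and 6.94 in FTY lungs. It rose by 1.12 (SE 0.28, limma adjusted p = 0.0122), again without overlap. Nr1d2 (0.47, SE 0.18, limma adjusted p = 0.0908), Cry2 (0.26, SE 0.10, 0.0987) and Npas2 (-0.81, SE 0.42, 0.205) were also without overlap but did not pass. In all, 5 of 10 clock genes had groups that did not overlap, as had 31.8% of all genes, and 5 had an unadjusted p under 0.05, as had 29.1%. Clock differed by -0.25 (SE 0.10, limma adjusted p = 0.102), Per1 by -0.44 (SE 0.22, 0.199), Cry1 by -0.27 (SE 0.16, 0.294), Rora by -0.13 (SE 0.09, 0.349) and Per2 by 0.03 (SE 0.30, 0.955). At another probe set Clock fell by 0.52 (limma adjusted p = 0.0141), and at another Rora fell by 0.64 (limma adjusted p = 0.00984). Of the 9 probe sets of Rora, 8 gave a lower mean and 1 passed the threshold. Without FTY replicate 3, Per3 was called and Nr1d1 was not (0.90, limma adjusted p = 0.0541). Neutrophil genes (7 of 8 above the filter) summed to 6180 to 16009 signal units after radiation with FTY, against 2038 to 3954 in FTY lungs, and muscle genes to 2216 to 42438 against 1925 to 2301; their part in these differences was not tested.

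Of the 30 clock partners, 3 rose and 4 fell between radiation with FTY and FTY alone, where 9.13% of all genes rose and 4.99% fell, so the number that rose is close to that share. Dbp measured 11.19, 11.06 and 11.04 after radiation with FTY, against 7.76, 9.02 and 8.26 in FTY lungs, and rose by 2.75 (SE 0.48, limma adjusted p = 0.00182). Tef rose by 0.82 (SE 0.18, limma adjusted p = 0.00657) and Hlf by 0.94 (SE 0.27, 0.0287). Arntl measured 7.92, 7.91 and 7.78 after radiation with FTY, against 9.47, 9.17 and 9.42 in FTY lungs. These values were apart and the gene fell by 1.48 (SE 0.39, limma adjusted p = 0.0171). Sirt1, a deacetylase that acts on BMAL1 and PER2, fell by 0.42 (SE 0.11, limma adjusted p = 0.0173), and Csnk1d and Gsk3b, kinases of clock proteins named after their values were seen, were the other 2 that fell. Nfil3 differed by -1.21 (SE 0.48) with a limma adjusted p of 0.0957.

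The interaction asks whether irradiated and unirradiated lungs differed in a gene by another amount under FTY than without a compound. For Per3 the difference of the log2 changes was 1.78 (SE 0.41, limma adjusted p = 0.0161), and for Nr1d1 it was 1.54 (SE 0.38, 0.0206). Both lay above the sum of the single effects. At the probe sets followed here 2 of the 10 clock genes were called higher and none lower, where 6.84% of all genes were called and 4.77% were higher. At another probe set Rora was higher by 0.73 (limma adjusted p = 0.0254). A probe set of Per3 below the filter gave 0.38 and did not pass (limma adjusted p = 0.140). Cry2 (0.45, SE 0.14, limma adjusted p = 0.0572) and Nr1d2 (0.75, SE 0.25, 0.0756) came next without passing. Clock (-0.35, SE 0.14), Cry1 (-0.48, SE 0.22) and Npas2 (-1.10, SE 0.57) had negative values, with limma adjusted p of 0.122, 0.199 and 0.254. An unadjusted p under 0.05 was met by 6 of the 10 genes and by 23.8% of all genes. Among the 30 partners 5 were higher (Bhlhe40, Dbp, Tef, Hlf and Crebbp) and 2 lower (Nfil3 and Sfpq), where 4.77% of all genes were higher and 2.07% lower, while Arntl had -1.75 (SE 0.53, limma adjusted p = 0.0533). Crebbp was itself called lower after radiation alone, with a mean of 10.52 against 11.03 in control lungs. Of the 10 clock genes, only Per3 was called without FTY replicate 3, with Nr1d1 at 1.32 (limma adjusted p = 0.0512). Among the partners, Dbp and Tef stayed called whichever array was left out.

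**Figure D3:**
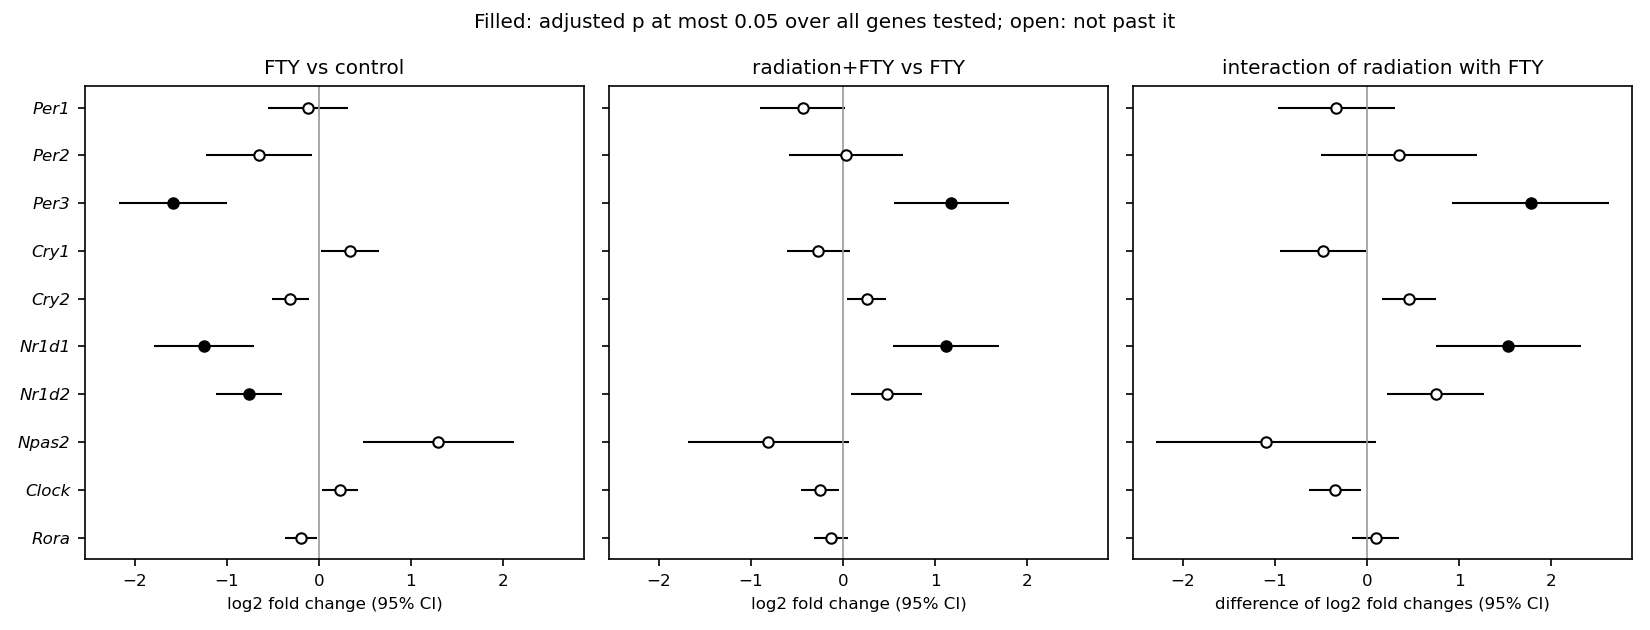
Log2 fold changes of the 10 clock genes in FTY over control lungs and in radiation with FTY over FTY lungs, and the interaction of radiation with FTY (a difference of log2 fold changes), with 95% confidence intervals from limma; filled points have an adjusted p of at most 0.05. Per3 and Nr1d1 are filled in all 3 panels, at -1.59 and -1.25, at 1.18 and 1.12, and at 1.78 and 1.54. All 3 panels use the same FTY arrays, so they are not independent results.

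In lungs given fTyS without radiation none of the 10 genes was called against control lungs, where 0.178% of all genes were, although 6 of 10 had an unadjusted p under 0.05, as had 15% of all genes. Per3 measured 8.43, 8.24 and 9.09 in fTyS lungs, against 9.13, 10.07, 9.90 and 9.30 in control lungs. The fTyS lungs lay below all control lungs, though the nearest almost met, and the difference was -1.01 (SE 0.28, limma adjusted p = 0.107). Nr1d1 measured 7.47, 7.70 and 8.06 in fTyS lungs, with a difference of -0.88 (SE 0.26, limma adjusted p = 0.135), and Nr1d2 11.21, 11.24 and 11.67, with -0.45 (SE 0.17, 0.228). Npas2 measured 7.64, 8.16 and 6.54 in fTyS lungs. Replicate 3 of fTyS lay inside the control range for Npas2 and Nr1d2 while the other 2 did not, and the difference of Npas2 was 0.87 (SE 0.39, limma adjusted p = 0.301). Per2 showed the same split of the fTyS lungs, at 8.20, 8.22 and 9.34, with -0.77 (SE 0.28, limma adjusted p = 0.205). When limma weighted arrays by their scatter about the group means, 6 of the 10 genes were called in fTyS lungs, where 15.1% of all genes were. The weights were 5.21, 0.48 and 0.44 for fTyS replicates 1, 2 and 3, so this count rests mostly on replicate 1.

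In SEW lungs 1 clock gene fell and none rose at the probe sets followed here, where 14.6% of all genes were called and 10.8% fell, so the number that fell is close to that share. An unadjusted p under 0.05 was met by 2 of 10, as by 30.9% of all genes. Per3 measured 8.53, 8.95 and 8.72 in SEW lungs, against 9.13, 10.07, 9.90 and 9.30 in control lungs. The groups were apart and the gene fell by 0.86 (SE 0.28, limma adjusted p = 0.0442). That call was lost when any 1 of the SEW arrays, control replicate 2, control replicate 3 or any of 6 arrays outside both groups was left out (-1.02 to -0.71 over all arrays left out in turn), and also under quantile normalization (-0.83) or median centring (-0.85). The log2 ratio of the Gapdh control probe sets ran from -0.17 to 0.07 in SEW lungs and from 0.08 to 0.36 in control lungs, and adipocyte genes summed to 7126 to 23425 signal units in SEW lungs and to 1951 to 8103 in control lungs. Per3 was not called with the Gapdh ratio as a covariate (-0.80, limma adjusted p = 0.208) or with the muscle and adipocyte means as covariates (-0.82, limma adjusted p = 0.0821). Nr1d1 measured 7.97, 8.21 and 8.16 in SEW lungs, with a difference of -0.51 (SE 0.26, limma adjusted p = 0.189). Npas2 measured 6.89, 6.4 and 6.91, inside the range of control lungs, with 0.16 (SE 0.39, limma adjusted p = 0.812). Clock measured 10.24, 10.06 and 10.22 in SEW lungs, with 0.21 (SE 0.09, limma adjusted p = 0.120), while its other probe sets gave -0.083 to -0.007. Rora differed by 0.09 (limma adjusted p = 0.500) at the probe set followed here and fell by 0.30 (limma adjusted p = 0.0203) at another.

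The compounds were compared with each other at the same dose and schedule in 6 pairs, 3 without and 3 with radiation, each with its own adjustment over all genes. Between fTyS and FTY, which differ in that fTyS is a phosphonate, no clock gene was called and no gene of any kind was (0%). Cry1 was the 1 clock gene with an unadjusted p under 0.05, as had 5.94% of all genes. Per3 differed by 0.58 (95% interval -0.05 to 1.20), Nr1d1 by 0.37 (-0.21 to 0.95) and Npas2 by -0.43 (-1.30 to 0.45); none of these 3 intervals excludes 0. Between FTY and SEW again no gene was called (0%), but 6 of 10 clock genes had groups without overlap, as had 18.1% of all genes, and 6 had an unadjusted p under 0.05, as had 9.11%. Npas2 differed by 1.14 (95% interval 0.27 to 2.02), Nr1d1 by -0.74 (-1.32 to -0.17), Per3 by -0.72 (-1.35 to -0.10) and Nr1d2 by -0.63 (-1.01 to -0.25), with limma adjusted p of 0.453, 0.462, 0.483 and 0.393. Between fTyS and SEW none of the 10 was called, where 1.55% of all genes were, 2 had an unadjusted p under 0.05, as had 17.5% of all genes, and Per2 differed by -0.63 (95% interval -1.25 to -0.01).

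Radiation alone left the 10 genes without a call against control lungs, where 4.4% of all genes were called. The genes with an unadjusted p under 0.05 were 2 of 10, as were 16.8% of all genes. Rora, whose product activates Arntl and Npas2, measured 10.26, 10.18 and 10.24 after radiation, against 10.47, 10.48, 10.50 and 10.36 in control lungs. The groups did not overlap, and the difference was -0.22 (SE 0.08, limma adjusted p = 0.153). Per3 measured 9.54, 8.73 and 8.73 after radiation, with a difference of -0.60 (SE 0.28, limma adjusted p = 0.276) and with replicate 1 inside the control range. The same replicate held the lowest Npas2 of all 25 arrays, at 5.90 against 7.51 and 7.17 in the other irradiated lungs, and the highest Cry1, at 8.92. Over the 3 arrays the difference of Npas2 was 0.29 (SE 0.39, limma adjusted p = 0.80).

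Adding a compound to radiation gave no call among the 10 genes against radiation alone, where 0.858% of all genes were called with fTyS, 2.48% with SEW and 3.02% with FTY. Unadjusted p under 0.05 was met by 1, 0 and 0 of the 10 genes, as against 12.4%, 17.3% and 23.3% of all genes. Per3 measured 8.97, 9.54 and 9.06 after radiation with fTyS, 9.03, 9.24 and 9.30 with FTY, and 8.21, 9.03 and 9.34 with SEW, against 9.54, 8.73 and 8.73 after radiation alone. These 4 groups overlapped throughout. The differences of Per3 were 0.19 (95% interval -0.43 to 0.82) with fTyS, 0.19 (-0.43 to 0.82) with FTY and -0.14 (-0.77 to 0.48) with SEW. Per1, a period gene that also answers to hormones and other acute signals, was lowest after radiation with FTY, at 9.62, 9.73 and 10.47, with a difference of -0.45 from radiation alone (SE 0.22, limma adjusted p = 0.225). With fTyS, Rora differed by 0.26 (SE 0.09, limma adjusted p = 0.190), and its groups did not overlap.

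Irradiated against unirradiated lungs under the same compound, and compounds against each other under radiation, gave calls in Rora. Between radiation with fTyS and fTyS alone no clock gene was called (0.456% of all genes were), and 1 had an unadjusted p under 0.05, Per1 at -0.54 (SE 0.22), as had 13.3% of all genes. Between radiation with SEW and SEW alone 1 gene fell, where 17.7% of all genes were called and 3.92% fell, and 1 had an unadjusted p under 0.05, as had 31.7%. Rora measured 10.16, 10.15 and 10.40 after radiation with SEW, against 10.57, 10.50 and 10.55 in SEW lungs, and fell by 0.30 (SE 0.09, limma adjusted p = 0.0230) without overlap. Between radiation with fTyS and radiation with FTY 1 gene rose, where 3.95% of all genes were called and 1.84% rose, and 1 had an unadjusted p under 0.05, as had 20.8%. Rora measured 10.40, 10.48 and 10.59 after radiation with fTyS, against 10.11, 9.98 and 10.29 after radiation with FTY, and rose by 0.37 (SE 0.09, limma adjusted p = 0.0297). The 9 probe sets of Rora did not move as 1: after radiation with SEW 7 of them gave a lower mean and 2 a higher one, with 4 past the threshold, and after radiation with fTyS against radiation with FTY all 9 gave a higher mean and 3 passed. The SEW call was lost without SEW replicate 1 or 3 or without replicate 1 or 2 of radiation with SEW, and the other without replicate 1 or 3 of radiation with fTyS or replicate 1 or 2 of radiation with FTY (0.29 to 0.45 over all arrays left out in turn). Of the remaining pairs under radiation, fTyS against SEW and FTY against SEW gave no call in any gene (0% each), with 1 and 0 clock genes at an unadjusted p under 0.05, as against 10.9% and 8.01% of all genes. The interactions of radiation with fTyS and with SEW called none of the 10 (1.35% and 13.9% of all genes were called), with 4 and 0 at an unadjusted p under 0.05, as against 15.1% and 29% of all genes.

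Ordered by group mean, Per3 was lowest in FTY lungs (8.01 ± 0.27, SD, n = 3) and then higher in turn in fTyS (8.59 ± 0.45), SEW (8.74 ± 0.21), radiation with SEW (8.86 ± 0.58), radiation (9.0 ± 0.47), radiation with FTY (9.19 ± 0.14), radiation with fTyS (9.19 ± 0.30) and control lungs (9.60 ± 0.46, n = 4). The arrays of every pair of neighbours in this order overlapped. Npas2 was highest in FTY lungs (7.88 ± 0.34) and lowest in control lungs (6.58 ± 0.42), and the groups between them did not follow the order of Per3 turned round. Its arrays were spread from 6.78 to 8.41 after radiation with SEW.

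The clock genes also varied among mice of the same group. Against the residual SD of all 12937 genes within groups, Npas2 stood at the 97.0th percentile, Per3 at the 94.6th, Per2 at the 94.5th, Nr1d1 at the 93.7th and Per1 at the 90.5th, while Nr1d2 (86.0), Cry1 (81.2), Cry2 (48.4), Clock (45.4) and Rora (35.7) stood lower. The deviations of single mice from their group mean went together in part of the genes. Of 45 pairs of clock genes, 17 had a correlation past an adjusted p of 0.05 (permutation within groups over 25 arrays, two-sided, Benjamini-Hochberg over the 45 pairs), 11 positive and 6 negative, and 15 passed by rank. The deviations of Per3 and Nr1d2 had a Pearson r of 0.916 (permutation p = 4e-05, adjusted 0.0018, rho 0.853), which was 0.913 without the 2 arrays farthest from the median of Per3. Those of Per3 and Npas2 had r = -0.895 (permutation p = 0.00017, adjusted 0.00285, rho -0.882), or -0.854 without 2 arrays. Nr1d2 and Npas2 had r = -0.834 (permutation p = 0.00019, adjusted 0.00285, rho -0.836) and Per2 and Npas2 r = -0.855 (permutation p = 0.00096, adjusted 0.00636, rho -0.738). A lung with less Per3, Per2 and Nr1d2 than its group thus tended to have more Npas2. Of the 6 negative pairs, all but that of Clock with Per3 joined Npas2 to Per2, Per3, Cry2, Nr1d1 or Nr1d2. Clock and Per3 had r = -0.573 (permutation p = 0.00874, adjusted 0.0246), or -0.407 without 2 arrays, and this pair did not pass by rank. Npas2 and Clock had r = 0.526 (permutation p = 0.0162, adjusted 0.0430), which was 0.268 without fTyS replicate 3 and radiation replicate 1, so this relation rests on those arrays. Per1 and Cry1 had no pair past the threshold.

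**Figure D4:**
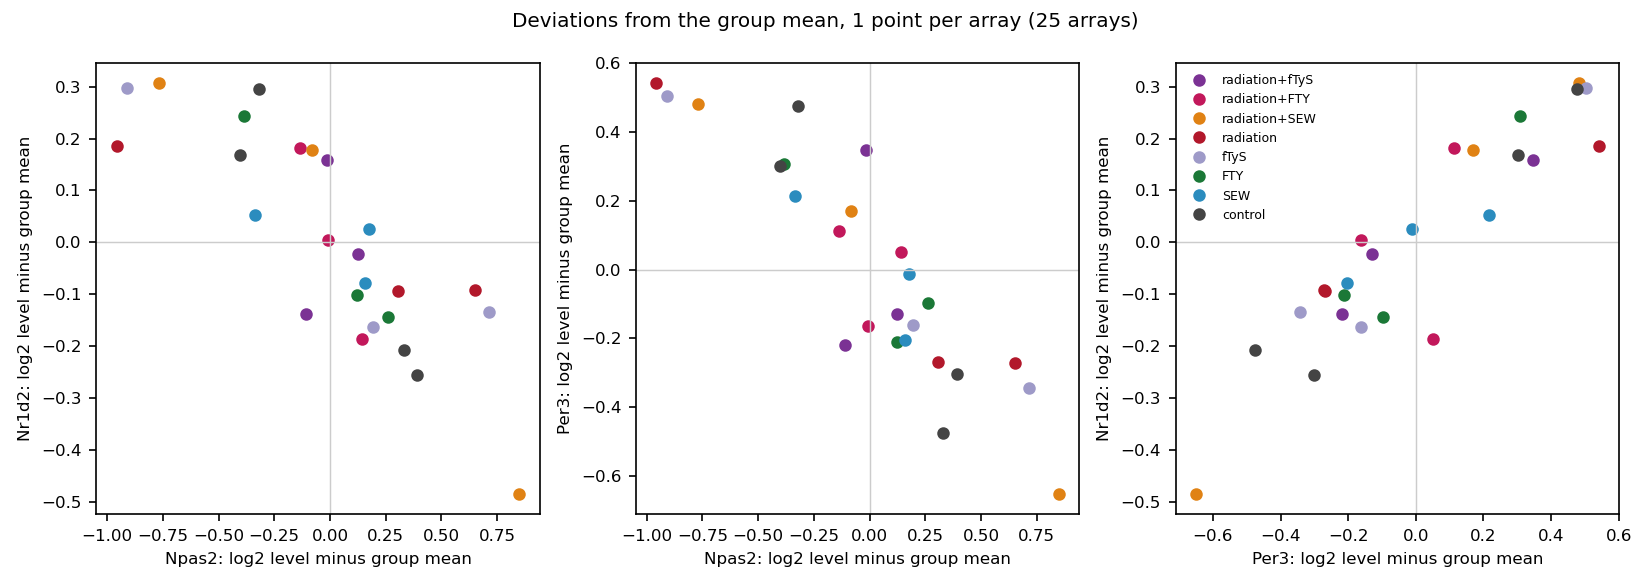
Deviation of each array from its group mean (log2) for Nr1d2 against Npas2, Per3 against Npas2, and Nr1d2 against Per3, with colours for the 8 groups. The first 2 panels slope down (r = -0.834 and -0.895) and the last slopes up (r = 0.916), and replicate 1 of radiation with SEW stands at the far end of each.

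Replicate 1 of radiation with SEW stood apart from its group in this way, with Npas2 at 8.41 (7.47 and 6.78 in the other 2 lungs), Per3 at 8.21 (9.03 and 9.34), Nr1d1 at 7.5 (8.40 and 8.30) and Nr1d2 at 10.92 (11.58 and 11.71). Its Per3 and Nr1d1 lay inside the range of the FTY lungs and its Npas2 above it, in a mouse that received SEW and radiation but no FTY. To place each lung on 1 scale, the mean log2 level of Per1, Per2, Per3, Nr1d1 and Nr1d2 less that of Npas2, Clock and Cry1 was taken per array and set against its mean over the 25 arrays, as a description with no test. This difference was -0.83 ± 0.35 in FTY lungs and 0.67 ± 0.40 in control lungs (SD, n = 3 and 4). It was -0.02 ± 0.13 after radiation with fTyS, 0.09 ± 0.15 after radiation with FTY, -0.24 ± 0.73 after radiation with SEW, 0.13 ± 0.45 after radiation alone, -0.22 ± 0.69 in fTyS lungs and 0.20 ± 0.28 in SEW lungs (n = 3 each). The 3 lowest arrays were FTY replicate 3 (-1.11), radiation with SEW replicate 1 (-1.04) and FTY replicate 1 (-0.94), and the 2 highest were control replicates 2 (1.06) and 3 (0.96). Replicates 2 (-0.71) and 1 (-0.52) of fTyS came next from the low end, below FTY replicate 2 (-0.43). With no hour of collection in the labels used here, a difference in the hour at which lungs were taken and an effect of treatment on these genes cannot be told apart.

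**Figure D5:**
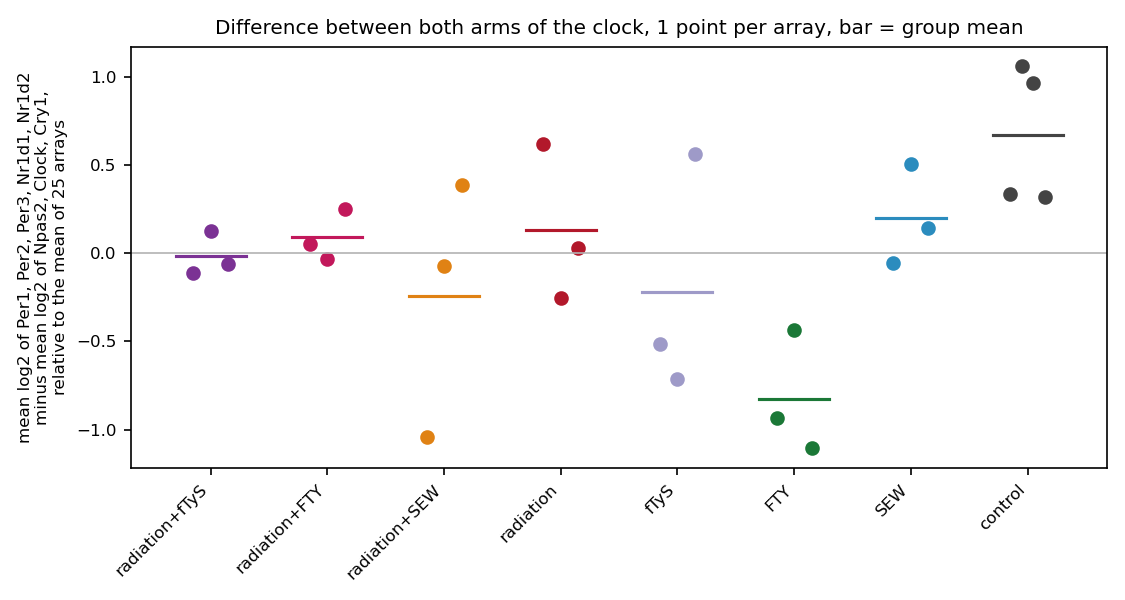
Difference between the mean log2 level of 5 genes (Per1, Per2, Per3, Nr1d1, Nr1d2) and that of 3 genes (Npas2, Clock, Cry1) on each array, relative to its mean over 25 arrays, by group, with the group mean as a bar. FTY lungs lie between -1.11 and -0.43 and control lungs between 0.32 and 1.06, while fTyS lungs and lungs after radiation with SEW are spread from -0.71 to 0.56 and from -1.04 to 0.38.

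Among all other genes tested, those most like Nr1d2 over the 25 arrays were Tef (r = 0.864), Dbp (0.853), BC002059 (0.802), Tspan4 (0.787) and Zfp617 (0.766). Those most like Npas2 were Leo1 (0.853), Arntl (0.817), Klhl13 (0.726), Col5a3 (0.671) and Tubb2b (0.668). These are Pearson correlations across arrays that share groups, ranked over all genes and given without a test. With group means removed, Dbp had 0.919 and Tef 0.878 with Nr1d2, and Arntl 0.903 and Leo1 0.819 with Npas2.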

How the data were processed

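Per the labels' protocols, total RNA was taken from each lung with Trizol, and 6 µg of it was made into biotinylated cRNA and hybridised to an Affymetrix array. The authors deposited 1 signal intensity per probe set and array, and the submitters' processing notes name GCOS. The summary and scaling behind these intensity values are not given in the sources used here. Signals ran from 0.53 to 19112.1, with 627 to 783 probe sets per array at exactly 1, and the number of arrays limits the precision. No background correction or further normalization was applied.

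Of 45101 probe sets, 64 were controls, 34945 named a single gene, 932 several and 9160 none in the platform annotation. Each gene was read from its brightest probe set by mean log2(signal + 16), and genes above the 40th percentile of that mean (6.49) were tested. limma 3.58.1 in R 4.3.3 fitted 8 group means (17 residual degrees of freedom) with a trended variance and Benjamini-Hochberg adjustment, and it was tested on simulated data. Correlations within groups used 100000 permutations (Python 3.11.15, numpy 2.4.6).

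The labels do not say whether mice of a group shared a cage, a day or a collection, so p-values measure the spread between these mice. Same-numbered replicates were checked for pairing: in 5 of 16 comparisons every pair correlated above 0.1, over a range of -0.81 to 0.78, and 7 of 25 arrays matched best with their own number. The genes and lists were chosen with earlier results of these data known. All 10 clock genes were to be named, with up to 8 called clock partners and Arntl, up to 4 genes of each other list, and the 5 genes most like Nr1d2 and Npas2. Alternatives covered normalization, pseudocount, filter, probe set choice, array weights, covariates, a replicate block and leaving out arrays. For each promoter, the RefSeq window of GRCm38.p6 was used.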

Additional observations from a re-analysis of the deposited data

Results flagged for a closer look

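Among the clock genes and partners checked for a sample far from its group (22 genes, in the 4 control arrays), the lowest control array stood apart for Rora, with a gap of 0.831 of the group's range and for Sirt1, with 0.865, both past Dixon's 95% critical value for 4 samples. Chance gives such a gap in about 1 of 20 groups.

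By limma's interaction term, the difference between irradiated and unirradiated lungs was not the same under FTY as without a compound for 9 genes. These were Per3 (1.78), Nr1d1 (1.54), Dbp (3.51), Hlf (1.56), Tef (1.17), Bhlhe40 (0.93), Crebbp (0.35), Sfpq (-0.75) and Nfil3 (-2.50), all on the log2 scale. With fTyS the term was called for Bhlhe40 (1.07) and Crebbp (0.41). With SEW it was called for Arntl2 (1.65), Bhlhe40 (0.87), Crebbp (0.47), Fbxw11 (0.24) and Sfpq (-0.74). All 3 interactions share the control and radiation arrays, between which Crebbp was called lower after radiation. Per3 and Nr1d1 were not called for radiation over control (limma adjusted p = 0.276 and 0.455). The hour of collection and treatment cannot be told apart here either. Bhlhe40, Arntl2 and Nfil3 were named after their values were seen.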

How the results depend on the processing

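Of 722 recounts of called genes under an alternative, 669 stayed within 1.5 times and 53 did not. Only 6 of the 19 comparisons had a call to begin with, and in the others a count that stayed at 0 was taken as unchanged. The 669 therefore do not measure how stable the calls are. With array weights the clock genes called, and beside them the share of all genes called in the same fit, were 5 for FTY over control (7.41%), 3 for SEW over control (34.2%), 3 for radiation over control (8.8%), 6 for fTyS over control (15.1%), 1 for radiation with fTyS over radiation (9.43%), 5 for radiation with fTyS over fTyS (28.8%), 6 for fTyS over SEW (34.6%), 2 for FTY over SEW (6.25%), 1 for radiation with fTyS over radiation with SEW (8.51%), 2 for radiation with fTyS over radiation with FTY (19.3%), and 6 (16%), 2 (26.0%) and 6 (13.5%) for the interactions with fTyS, SEW and FTY. FTY over control gave 0 with the Gapdh covariate and 0 when only the compared arrays were fitted, where 0 and 1 of all genes were called. SEW over control gave 0 under quantile normalization (1721 of all genes called), median centring (1454), no filter (1604) and the mean of all probe sets (1362). It also gave 0 with the Gapdh covariate (331), the muscle and adipocyte covariates (1927), and only the compared arrays (746). The interaction with FTY gave 1 with the Gapdh covariate (449 of all genes called), 1 with only the compared arrays (375) and 4 with the replicate block (768). The replicate block leaves out control replicate 4 and moved no other count of clock genes by over 1.5 times. The mean of all probe sets gave 1 for radiation over control (706 of all genes called) and 1 for the interaction with fTyS (204). Only the compared arrays gave 0 for radiation with fTyS over radiation with FTY, where 0 of all genes were called. Leaving out arrays in turn gave 0 to 4 for FTY over control, 0 to 2 for SEW over control, 1 to 3 for radiation with FTY over FTY, 1 to 3 for the interaction with FTY, 0 to 1 for radiation with SEW over SEW and 0 to 1 for radiation with fTyS over radiation with FTY. Where these counts moved by over 1.5 times, the number of all genes called moved too. It was 35 to 96 for FTY over control (353 with all arrays) and 592 to 2183 for SEW over control (1889). For radiation with FTY over FTY it was 1459 (1826), and for the interaction with FTY 726 (885). For radiation with SEW over SEW it was 1236 to 1978 (2295), and for radiation with fTyS over radiation with FTY 6 to 198 (511). Rora after radiation with SEW against SEW reversed at 2 other probe sets (0.021 and 0.17). Pairs of correlated clock genes numbered 13 (without radiation replicate 1) to 22, alternatives chosen after seeing the data. The cause of these changes was not tested.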

Other observations

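Other gene lists, drawn up with earlier results known, were counted in the same fits. Against control lungs 3.77% of all genes rose and 10.8% fell in SEW lungs, and 0.479% rose and 2.25% fell in FTY lungs. Of 16 glucocorticoid-induced genes, 7 rose in SEW lungs, with Fkbp5, a chaperone of the glucocorticoid receptor, at 1.91 and Tsc22d3 at 0.74 on the log2 scale, and none was called in FTY lungs. Of 9 genes that answer to heat or cold, 6 rose (Hspa1a, Hspa1b, Hsph1, Dnajb1, Hspb1 and Hspa5) and 1 fell (Cirbp) in SEW lungs (median 0.75). In FTY lungs 2 rose and none fell (Hspa1a and Dnajb1, median of the list 0.34). The list summed to 39677 to 40987 signal units in SEW lungs, to 36222 to 39587 in FTY lungs and to 23909 to 37509 in control lungs. After radiation with FTY 3 of the 9 fell against FTY alone, where 4.99% of all genes fell. Of 16 immediate early genes, 1 rose and 7 fell in SEW lungs, and 1 rose and 2 fell in FTY lungs, with Nr4a3 at 1.33 and Ier3 at -0.55 in FTY lungs.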
